A study of Homo sapiens with 9 samples.

Results

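The CD3 chains, the T-cell coreceptors and the related surface receptors CD5 and CD6 were followed in 9 mRNA sequencing libraries from Jurkat, an established line that came from a human T-cell leukaemia. The members and the gene lists used below were chosen with earlier results of these data known. The members, taken by symbol, were CD3D, CD3E, CD3G, CD247, CD4, CD8A, CD8B, CD5 and CD6. All 9 were found among the 26190 rows of the expression table that held values. The libraries came from the CRISPR/Cas9-edited lines labelled EZH2-KO2 and EZH2-KO1 and from the line labelled EZH2-WT, with 3 libraries each, which the submitters call biological triplicates. All groups were grown in the same RPMI medium with serum and antibiotics, and the labels name no drug treatment. Each edited line is 1 line, so p-values measure the spread between its cultures and not between independent edits. EZH2 is the catalytic subunit of a Polycomb complex that methylates histone H3 at lysine 27, a mark of silenced genes. The comparisons ask how these receptor transcripts differed between each edited line and WT, and between the edited lines.

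The T-cell receptor reaches the surface together with the CD3 chains. CD3E pairs with CD3D and with CD3G, and CD247 encodes the zeta chain, which forms a homodimer. The cytoplasmic tails of these chains carry the tyrosine motifs that the kinase LCK phosphorylates when the receptor binds a peptide on an MHC molecule. CD4 binds MHC class II and CD8, a dimer of the products of CD8A and CD8B, binds MHC class I, and both bring LCK to the receptor. CD5 and CD6 are scavenger receptor family proteins of T cells that dampen or tune receptor signalling. Jurkat cells are generally described as carrying CD3 and little CD4, without surface CD8.

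RefSeq start site windows (GRCh38.p14, 250 bases before to 50 after a start) were matched for 3 of the 9 members, CD3D, CD247 and CD8A. They are shown because no other member had a window, and they were not chosen by how they changed. CD3D was lower in KO1, CD247 was lower in both edited lines, and CD8A had the lowest level in WT. Whether the sequences relate to these values was not tested. All lie on the minus strand, at chr11:118342656-118342955 for CD3D, chr1:167518480-167518779 for CD247 and chr2:86808347-86808646 for CD8A, the outermost of 4 CD8A windows. Capitals mark matches on either strand to the 4 short motifs searched, which may overlap each other. The E-box motif has the letters CANNTG. The GATA motif is spelled as its name. The ETS core motif has the letters GGAA. The RUNX core motif has the letters TGTGGT.
CD3D: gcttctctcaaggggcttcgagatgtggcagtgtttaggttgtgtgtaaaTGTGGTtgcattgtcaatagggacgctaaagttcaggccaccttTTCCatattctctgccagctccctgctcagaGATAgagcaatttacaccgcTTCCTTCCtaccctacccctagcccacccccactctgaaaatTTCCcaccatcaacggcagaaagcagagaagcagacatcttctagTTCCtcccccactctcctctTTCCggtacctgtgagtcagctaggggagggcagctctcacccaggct
CD247: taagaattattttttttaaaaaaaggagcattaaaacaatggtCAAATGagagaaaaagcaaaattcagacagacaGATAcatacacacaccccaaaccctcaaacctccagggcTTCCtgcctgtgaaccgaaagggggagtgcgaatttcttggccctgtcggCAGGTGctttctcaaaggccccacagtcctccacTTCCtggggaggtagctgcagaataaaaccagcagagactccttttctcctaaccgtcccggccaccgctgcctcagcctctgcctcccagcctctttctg
CD8A: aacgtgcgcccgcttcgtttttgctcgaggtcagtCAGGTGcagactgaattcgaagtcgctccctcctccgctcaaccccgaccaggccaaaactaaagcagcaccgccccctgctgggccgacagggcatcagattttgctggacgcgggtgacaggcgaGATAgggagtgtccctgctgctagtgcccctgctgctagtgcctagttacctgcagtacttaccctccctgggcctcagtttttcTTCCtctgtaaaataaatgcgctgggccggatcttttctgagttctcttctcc

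The CD3D window held 6 matches to the ETS core, 1 to the GATA motif, 1 to the RUNX core and 0 to the E-box. The CD247 window held 2 matches each to the ETS core and the E-box, 1 to the GATA motif and 0 to the RUNX core. The CD8A window held 1 match each to the E-box, the GATA motif and the ETS core and 0 to the RUNX core. These are short words that many start sites hold: among 35116 windows, 95.5% held the ETS core, 68.7% the E-box, 49.7% the GATA motif and 13.1% the RUNX core. The CD3D window held 5 CpG, the CD247 window 6 and the printed CD8A window 16. The 4 CD8A windows held 18, 6, 16 and 25 CpG and 5, 3, 1 and 5 matches to the ETS core. In the same order they held 0, 4, 1 and 3 matches to the E-box and 0, 0, 1 and 0 to the GATA motif. The CD8A values above are thus those of the window shown alone. The median over all windows was 14 CpG (quartiles 4 and 28). A match is a description of the letters and not evidence of binding.

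Values are FPKM (fragments per kilobase of transcript per unit of library size), so that levels of different genes can be compared per length. EZH2 itself had 87.9, 89.9 and 90.7 FPKM in KO2, 108, 107 and 103 FPKM in KO1, and 74.4, 77.6 and 79.5 FPKM in WT. A gene-level value cannot reveal a small insertion or deletion, so the EZH2 level is no test of the labels. Summed FPKM per library ran from 417737 to 421229 in KO1, below all libraries of KO2 (430433 to 439704) and WT (432939 to 439031). Relative depth, read from the steps between low values, ran from 0.96 to 1.15 against WT replicate 3. The depth in reads is unknown. The T-cell marker genes CD2, CD7, LCK, TRAT1 and BCL11B were all expressed, with summed FPKM of 358 to 369 in KO2, 422 to 444 in KO1 and 415 to 432 in WT. Of 5 B-cell markers, CD79A was tested, with the list's sum at 19.3 to 22.4 FPKM in KO2, 48.8 to 58.4 in KO1 and 24.6 to 29 in WT, and PAX5 was listed at 0 in all libraries. Of 5 natural killer markers, NCAM1 and NKG7 were tested, with sums of 8.99 to 11.5 FPKM in KO2, 21 to 23.5 in KO1 and 2.03 to 2.54 in WT, and KLRF1 was listed at 0 in all libraries. The 6 myeloid and 4 erythroid markers summed to at most 0.569 and 1.12 FPKM in any library. The 5 epithelial and fibroblast markers, of which COL1A1 was tested, summed to 1.2 to 1.56 FPKM in KO2, 1.34 to 2.22 in KO1 and 0.449 to 0.51 in WT. NCAM1 and COL1A1 entered the test through the edited libraries alone, with all WT libraries under 1 FPKM. The part of these markers in the results was not tested.

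The members spanned the whole range of expressed genes. CD3D, CD3E and CD3G were among the most abundant transcripts, above 96.2% or more of the 11737 tested genes by mean FPKM in each group. Tested genes are those with at least 1 FPKM in 3 or more of the 9 libraries, which 8 of the 9 members were. CD8A, at 1 FPKM or more in fewer libraries, was not tested. In WT the order by mean FPKM was CD3D (493), CD3E (365), CD3G (146), CD247 (71.3), CD5 (34.9), CD4 (12.7), CD6 (8.03), CD8B (0.975) and CD8A (0.28), with no overlap of libraries between neighbours in this order. The edited lines kept the order of the first 5 genes, and in both CD4 stood below CD6. In KO2 the libraries of CD8B and CD4 overlapped, at means of 1.39 and 1.1 FPKM.

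**Figure D1:**
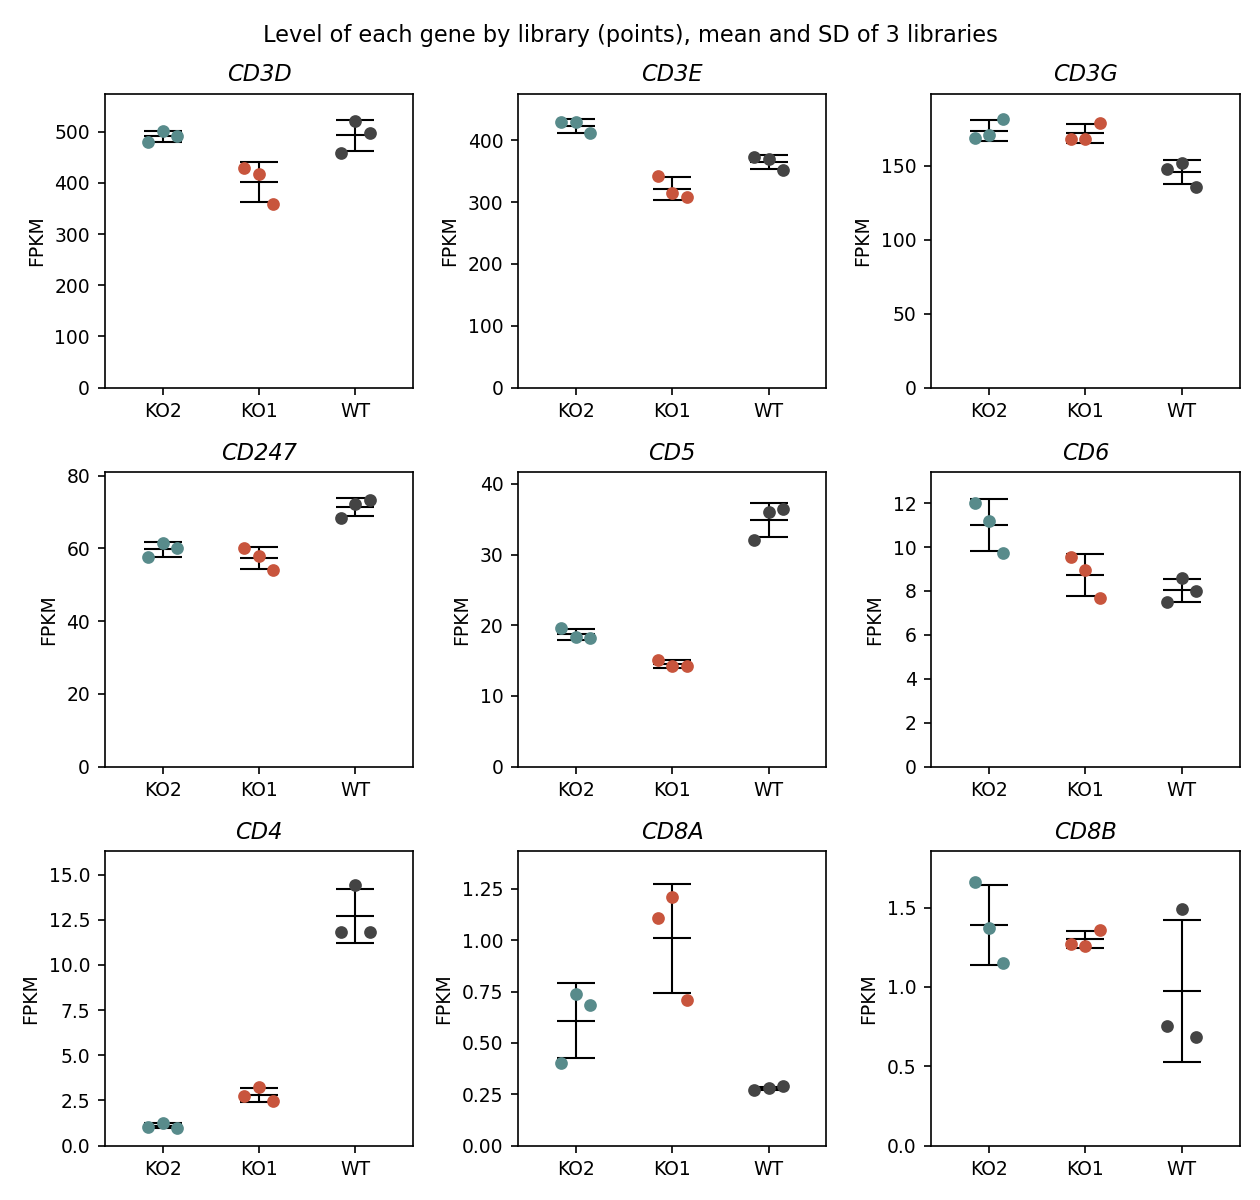
FPKM (vertical axes, from 0, a scale for each gene) of the 9 genes in each library of KO2, KO1 and WT; points are libraries and bars the mean and SD of 3. The CD4 and CD5 points of both edited lines lie below all WT points, whereas CD3G lies above them.

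The signalling and dimerising chains of the CD3 complex moved by small amounts, in different directions. CD3G, which encodes the gamma chain, was higher in both edited lines, and CD247, the zeta chain, was lower in both. CD3E, the chain shared by both CD3 heterodimers, was higher in KO2 and lower in KO1, and CD3D, the delta chain, was lower in KO1. Log2 fold changes ± SE were taken on log2(FPKM + 1), with limma and Benjamini-Hochberg adjustment over all 11737 tested genes and a threshold of 0.05. In bulk RNA, fewer cells with a transcript and less of it per cell cannot be told apart.

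CD3G had 169, 171 and 182 FPKM in KO2 and 168, 168 and 179 FPKM in KO1, against 148, 152 and 136 FPKM in WT. All 6 edited libraries were above the 3 WT libraries. The log2 fold change was 0.26 ± 0.05 in KO2 (limma adjusted p = 0.000994) and 0.24 ± 0.05 in KO1 (adjusted p = 0.00151). The edited lines overlapped each other, with a KO2 to KO1 log2 fold change of 0.02 (95% interval -0.09 to 0.13, adjusted p = 0.798).

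CD247 had 57.6, 61.5 and 60.1 FPKM in KO2 and 60, 57.8 and 54.1 FPKM in KO1, against 68.4, 72.2 and 73.3 FPKM in WT. Here all 6 edited libraries were below WT. The log2 fold change was -0.25 ± 0.05 in KO2 (limma adjusted p = 0.000953) and -0.31 ± 0.05 in KO1 (adjusted p = 0.000189). Between KO2 and KO1 it was 0.06 (95% interval -0.05 to 0.17, adjusted p = 0.375).

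CD3E had 429, 430 and 411 FPKM in KO2 and 343, 315 and 309 FPKM in KO1, against 373, 369 and 352 FPKM in WT. The 3 groups did not overlap, with WT between the edited lines. CD3E rose in KO2 by 0.21 ± 0.04 (limma adjusted p = 0.00169) and fell in KO1, at -0.18 ± 0.04 (adjusted p = 0.0046). The fall in KO1 depended on scaling: after quantile normalization the log2 fold change was -0.07 (adjusted p = 0.194). The difference between the lines, tested directly, was 0.39 ± 0.04 for KO2 against KO1 (adjusted p = 0.000113).

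CD3D had 480, 501 and 491 FPKM in KO2 and 430, 418 and 358 FPKM in KO1, against 459, 521 and 498 FPKM in WT. The KO1 libraries were below all others, and KO2 lay within the WT range. CD3D fell in KO1, with a log2 fold change of -0.29 ± 0.07 (limma adjusted p = 0.00254). In KO2 it was -0.0044 (95% interval -0.15 to 0.14, adjusted p = 0.958). KO2 was higher than KO1 by 0.29 ± 0.07 (adjusted p = 0.00796), a call that was lost when all 26190 rows entered the fit (adjusted p = 0.0644).

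The summed FPKM of CD3D, CD3E, CD3G and CD247 was 1148 ± 14.7 in KO2 and 953 ± 50.7 in KO1, against 1074 ± 35.3 in WT (SD, n = 3 each). The make-up of this sum was compared within libraries, since a share does not depend on scaling between them. CD3G took 14.9%, 14.7% and 15.9% of the sum in KO2 and 16.8%, 17.5% and 19.9% in KO1, against 14.1%, 13.7% and 12.9% in WT. CD247 took 5.07%, 5.29% and 5.25% in KO2 and 5.99%, 6.03% and 6.01% in KO1, against 6.52%, 6.48% and 6.92% in WT. For both chains the 3 groups did not overlap, but in different orders: KO1 was highest for CD3G, and WT was highest for CD247. The share of CD3D was 42.7 ± 0.412% in KO2 and 42.1 ± 2.04% in KO1, against 45.8 ± 1.77% in WT, below all WT libraries in both lines. The share of CD3E was 36.9 ± 0.941% in KO2, above both 33.8 ± 0.842% in KO1 and 34 ± 1.39% in WT, with KO1 and WT overlapping (SD, n = 3 each). With 3 libraries against 3, the exact two-sided permutation test cannot go below p = 0.1, which each difference without overlap reached (adjusted p = 0.125 over 15 tests), so none of these differences in share passed.

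**Figure D2:**
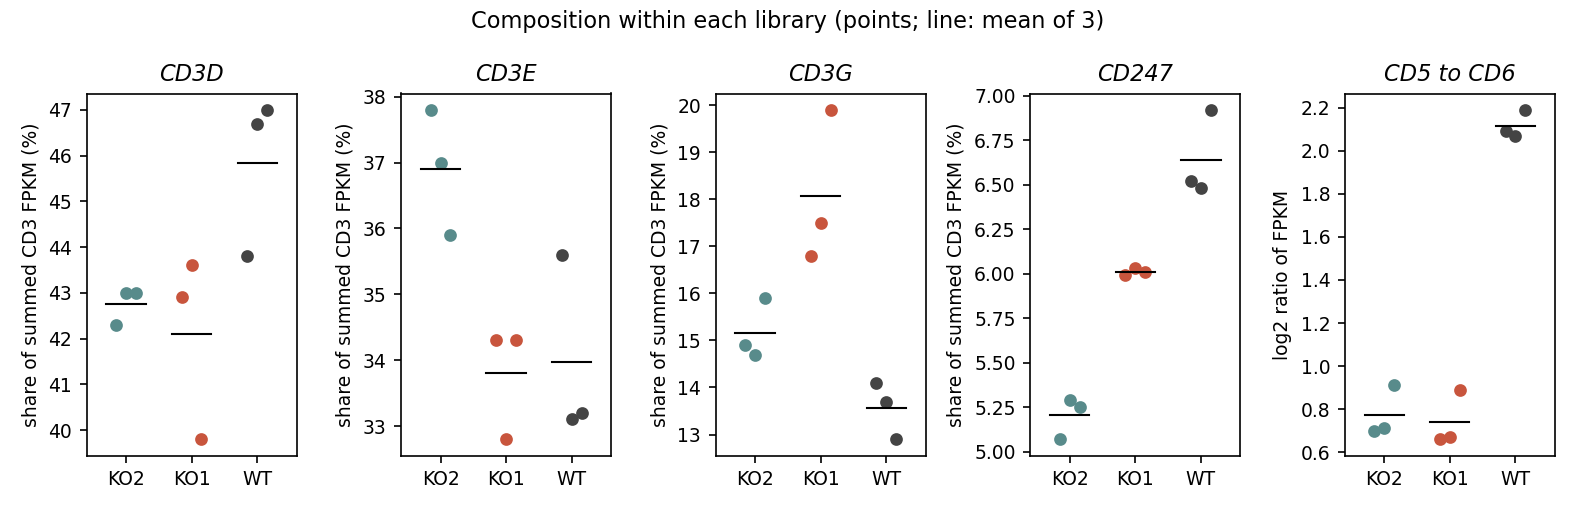
Share of each CD3 transcript in the summed FPKM of the 4 (percent) and the log2 ratio of CD5 to CD6, for each library of KO2, KO1 and WT; lines are means of 3, and the vertical axes do not start at 0. The CD3G share is highest in KO1 and the CD247 share in WT, and the CD5 to CD6 ratio of both edited lines lies below that of WT.

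CD4 changed more than any other tested member in both edited lines. It had 1.06, 1.25 and 0.995 FPKM in KO2 and 2.75, 3.22 and 2.46 FPKM in KO1, against 11.8, 14.4 and 11.8 FPKM in WT. The 3 groups were fully apart, with KO2 lowest. The mean was 0.087 times that of WT in KO2 and 0.222 times in KO1. The log2 fold change was -2.70 ± 0.10 in KO2 (limma adjusted p = 8.76e-09) and -1.84 ± 0.10 in KO1 (adjusted p = 7.28e-08). Ordered by log2 fold change from the lowest, CD4 was number 13 of 11737 tested genes in KO2 and number 81 in KO1. KO2 was also lower than KO1, at -0.86 ± 0.10 (adjusted p = 0.00014). In WT, CD4 stood above 50.1% of the tested genes by mean FPKM, in KO2 above 4.3% and in KO1 above 16.1%.

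The CD8 genes stayed near the limit of 1 FPKM. CD8A, the chain that can form CD8 on its own, had 0.4, 0.739 and 0.684 FPKM in KO2 and 1.11, 1.21 and 0.709 FPKM in KO1, against 0.273, 0.28 and 0.288 FPKM in WT. Every edited library was above every WT library, at a mean of 2.17 times that of WT in KO2 and 3.6 times in KO1. In a fit of all 26190 rows with no filter on low values, the CD8A log2 fold change was 0.32 ± 0.12 in KO2 (limma adjusted p = 0.0974) and 0.64 ± 0.12 in KO1 (adjusted p = 0.00585). The depth behind these low values is unknown, and CD8A was the lowest member in all groups. CD8B, the partner chain of CD8A, had 1.66, 1.37 and 1.15 FPKM in KO2 and 1.27, 1.26 and 1.36 FPKM in KO1, against 0.751, 1.49 and 0.686 FPKM in WT. WT replicate 2 stood within the range of the edited lines, and the other WT libraries stood below it. CD8B did not pass in KO2 (0.29 ± 0.14, limma adjusted p = 0.095) or KO1 (0.24 ± 0.14, adjusted p = 0.158). Without WT replicate 2 it passed in both (0.47, adjusted p = 0.00479 in KO2 and 0.42, adjusted p = 0.00829 in KO1). No other alternative gave a call against WT for CD8B. With quantile normalization it was 0.07 in KO2 (limma adjusted p = 0.662) and -0.01 in KO1 (adjusted p = 0.949).

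CD5 and CD6, which neighbour each other on chromosome 11, differed in their changes against WT. CD5 fell in both edited lines, whereas CD6 rose in KO2 and did not pass in KO1. CD5, a brake on receptor signalling, had 19.6, 18.3 and 18.2 FPKM in KO2 and 15.1, 14.2 and 14.2 FPKM in KO1, against 32, 36 and 36.5 FPKM in WT. The groups did not overlap, with KO1 lowest and WT highest. The mean was 0.537 times that of WT in KO2 (log2 fold change -0.86 ± 0.06, limma adjusted p = 5.4e-07) and 0.416 times in KO1 (-1.21 ± 0.06, adjusted p = 3.18e-08). KO2 was higher than KO1 by 0.35 ± 0.06 (adjusted p = 0.00147).

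CD6, which binds the adhesion molecule ALCAM, had 12, 11.2 and 9.74 FPKM in KO2 and 9.55, 8.97 and 7.66 FPKM in KO1, against 7.52, 8.59 and 8 FPKM in WT. The KO2 libraries were above all others, and KO1 overlapped WT. CD6 rose in KO2 by 0.41 ± 0.09 (limma adjusted p = 0.00289), and in KO1 it stood at 0.10 (95% interval -0.10 to 0.31, adjusted p = 0.342). KO2 passed against KO1 at 0.30 ± 0.09 (adjusted p = 0.0307), but this call was lost without KO1 replicate 2 (adjusted p = 0.0589), KO1 replicate 3 (0.106), KO2 replicate 1 (0.115) or KO2 replicate 2 (0.0899). The log2 ratio of CD5 to CD6 within a library was 0.70, 0.71 and 0.91 in KO2 and 0.66, 0.67 and 0.89 in KO1, against 2.09, 2.07 and 2.19 in WT. Both edited lines were below WT, with differences of -1.34 for KO2 and -1.38 for KO1, and overlapped each other. The exact two-sided permutation test gave p = 0.1 against WT for each line, the smallest possible, and p = 0.5 between KO2 and KO1. After adjustment over 15 tests the permutation p against WT was 0.125 for each line, so neither difference in ratio passed.

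Counted together, 3 of the 8 tested members rose and 3 fell in KO2, where 64.7% of all tested genes passed (38.1% higher and 26.6% lower). In KO1, 1 rose and 5 fell, where 67.5% of all tested genes passed (35.6% higher and 31.9% lower). With 6 of 8 members called in each line, the share of members that passed was near the share of all genes. The median log2 fold change of the 8 members was 0.11 in KO2 and -0.24 in KO1, beside 0.06 and 0.02 over all tested genes. Between KO2 and KO1, CD3D, CD3E, CD5 and CD6 were higher in KO2 and CD4 was lower, which makes 5 of 8 members where 30.6% of all tested genes passed (18.3% higher and 12.4% lower). Of all calls between KO2 and KO1, 59.7% were higher, against 44.8% after rescaling each library to the same sum, 47.9% with median centring and 49% with quantile normalization. Both lines were compared with the same 3 WT libraries, so their values are not independent of each other.

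**Figure D3:**
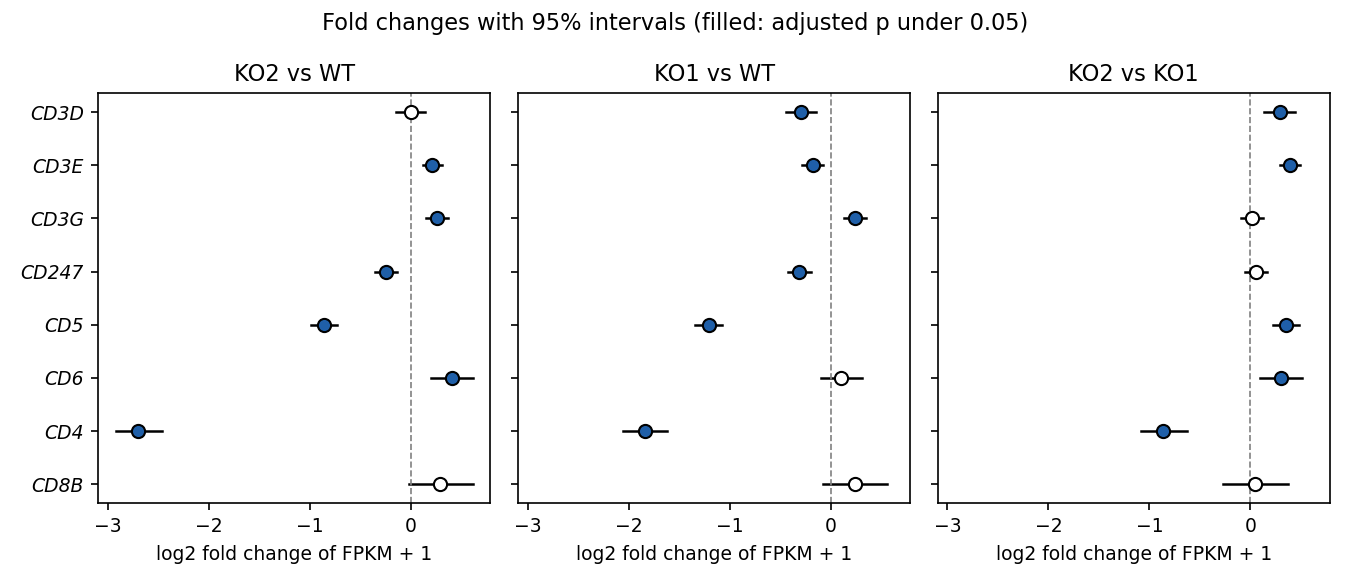
Log2 fold change of FPKM + 1 (horizontal axis) with 95% interval for the 8 tested genes in KO2 against WT, KO1 against WT and KO2 against KO1; filled points passed at an adjusted p under 0.05. CD4 reaches -2.70 in KO2 and -1.84 in KO1, while the CD3 chains stay within 0.40 of 0 in all comparisons.

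The kinases, adaptors and phosphatases that act next to the CD3 chains and coreceptors were mostly lower in the edited lines. Of 30 listed genes, all tested, 6 rose and 21 fell in KO2, with a median log2 fold change of -0.27, and 5 rose and 21 fell in KO1, with a median of -0.36. Over all tested genes, 38.1% rose and 26.6% fell in KO2 (median 0.06), and 35.6% rose and 31.9% fell in KO1 (median 0.02). TXK, a Tec family kinase gene, is in these counts although it entered the test through the KO2 libraries alone. All its KO1 and WT libraries were under 1 FPKM. The median stayed below 0 under all 3 other scalings, at -0.26 to -0.31 in KO2 and -0.31 to -0.37 in KO1. SIT1, a transmembrane adaptor that restrains receptor signalling, averaged 38.1 ± 1.72 FPKM in KO2 and 34.6 ± 5.99 FPKM in KO1, against 63.7 ± 10.1 FPKM in WT. GRAP2 (GADS), which links LAT to LCP2, averaged 23.2 ± 1.22 FPKM in KO2 and 25.8 ± 0.675 FPKM in KO1, against 39.6 ± 2.32 FPKM in WT. PAG1, the membrane adaptor that recruits the inhibitory kinase CSK, averaged 8.1 ± 0.339 FPKM in KO2 and 8.41 ± 0.599 FPKM in KO1, against 13.7 ± 0.479 FPKM in WT. These 3 genes fell in both lines (limma adjusted p from 9.54e-07 to 0.000578), with log2 fold changes of -0.60 to -0.87.

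The adhesion receptor CD2, whose tail binds some of the same kinases, was the listed gene that passed in opposite directions. It had 3.54, 4.5 and 5.11 FPKM in KO2 and 87.2, 90.1 and 94.4 FPKM in KO1, against 35.8, 35 and 36.6 FPKM in WT. WT thus lay between the edited lines with no overlap. The log2 fold change was -2.78 ± 0.09 in KO2 (limma adjusted p = 3.05e-09) and 1.31 ± 0.09 in KO1 (adjusted p = 3.57e-07).

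Transcription factors and chromatin proteins known to act on CD4 or CD8 expression, or on the development of the cells that carry them, moved both ways. Of 25 listed genes, all tested, 10 rose and 8 fell in KO2 (median log2 fold change 0.05), and 11 rose and 10 fell in KO1 (median 0.06). In total 18 of 25 passed in KO2, where 64.7% of all tested genes passed, and 21 of 25 in KO1, where 67.5% passed. ZBTB7B, the gene of the CD4 lineage factor ThPOK, and IKZF3 are in these counts although they entered the test through the edited libraries alone. ID3, an inhibitor of E proteins, averaged 25.8 ± 2 FPKM in KO2 and 31.2 ± 2.47 FPKM in KO1, against 10.3 ± 1.17 FPKM in WT. IKZF3 (Aiolos), an Ikaros family factor, averaged 1.75 ± 0.15 FPKM in KO2 and 2.54 ± 0.184 FPKM in KO1, against 0.439 ± 0.0533 FPKM in WT. MYB, a factor of blood progenitors and developing thymocytes, averaged 224 ± 1.88 FPKM in KO2 and 290 ± 11.9 FPKM in KO1, against 158 ± 5.44 FPKM in WT. TOX, which in mice is required for CD4 T-cell development, went the other way, at 38.3 ± 1 FPKM in KO2 and 34.8 ± 0.887 FPKM in KO1, against 70.3 ± 2.32 FPKM in WT. ID3 and MYB rose and TOX fell in both lines (limma adjusted p from 1.01e-08 to 1.53e-06), with no overlap between edited and WT libraries. The edited libraries of IKZF3 were also all above WT, but since its WT libraries were all under 1 FPKM the filter let it in only where it was high, and its level is given as a description.

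Ligands and relatives of the coreceptors were sparse in these cells: 9 of 17 listed genes were tested, of which 4 rose and 3 fell in KO2 and 5 rose and 3 fell in KO1. These were 7 of 9 genes in KO2, where 64.7% of all tested genes passed, and 8 of 9 in KO1, where 67.5% passed. ALCAM, the ligand of CD6, averaged 23.6 ± 1.02 FPKM in KO2 and 29 ± 1.22 FPKM in KO1, against 6.21 ± 0.552 FPKM in WT. This was a log2 fold change of 1.77 ± 0.06 in KO2 (limma adjusted p = 6.5e-09) and 2.06 ± 0.06 in KO1 (adjusted p = 1.3e-09). CD72, a B-cell receptor reported as a CD5 ligand, averaged 2.92 ± 0.532 FPKM in KO2 and 3.17 ± 0.389 FPKM in KO1, against 6.33 ± 0.619 FPKM in WT. HLA-B, an MHC class I gene whose product CD8 can bind, averaged 67.3 ± 2.19 FPKM in KO2 and 77.3 ± 5.77 FPKM in KO1, against 29.2 ± 0.574 FPKM in WT. HLA-DRB1, a class II gene of the kind that CD4 binds, averaged 0.968 ± 0.154 FPKM in KO2 and 1.21 ± 0.369 FPKM in KO1, against 0.22 ± 0.19 FPKM in WT, where replicate 3 was listed at 0. CD72 fell and HLA-B rose in both lines (limma adjusted p from 7.03e-09 to 7.47e-05). HLA-DRB1 is in the counts above but entered the test through the edited libraries alone, so its level is given as a description. HLA genes have near-identical copies that can share reads, so their values are uncertain. The class II transactivator gene CIITA was listed at 0 in all 9 libraries.

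**Figure D4:**
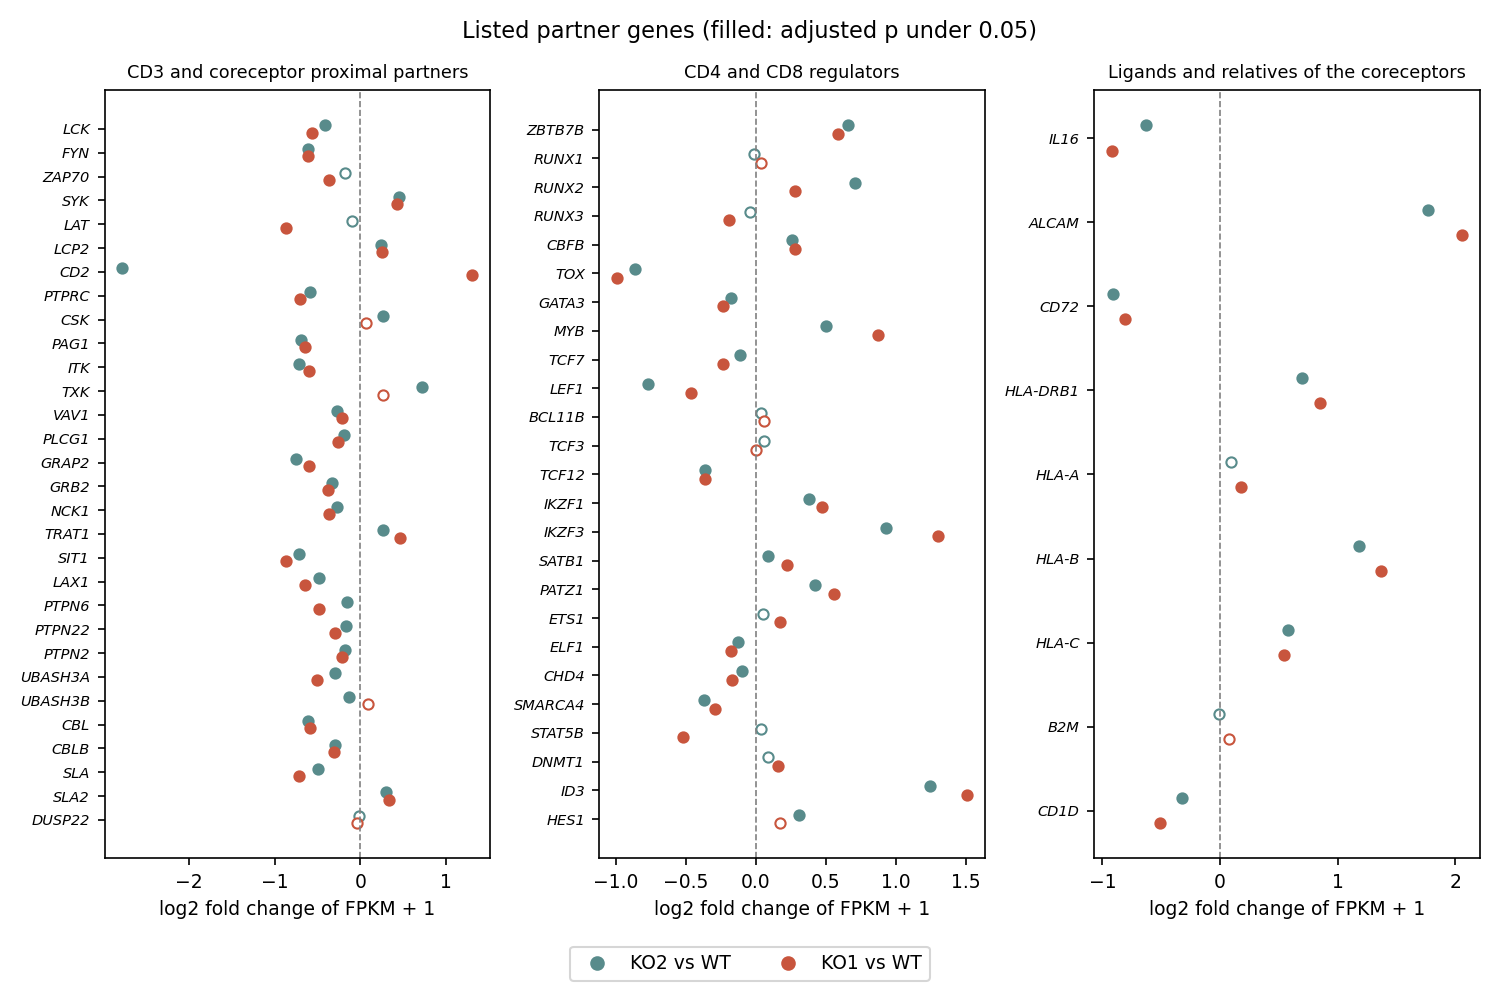
Log2 fold change of FPKM + 1 (horizontal axes, a scale for each panel) of the tested genes of the 3 lists in KO2 and KO1 against WT; filled points passed at an adjusted p under 0.05. Most proximal partners lie below 0 in both lines, CD2 lies at -2.78 in KO2 and 1.31 in KO1, and ALCAM lies above 0 in both.

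The genes most like each member were found by the root mean square difference of log2(FPKM + 1), each gene centred on its own mean, over the 9 libraries, as a description. For the CD3 chains these were genes with equally small shifts, at differences of 0.0284 to 0.0511: GET4, DBNDD2 and ZDHHC18 for CD3D, RAN, SURF4 and HSD17B10 for CD3E, ZNF546, AP3B1 and RAB8A for CD3G, and RPS27, SLC9A3R1 and MYL6 for CD247. The most alike to CD5 were SMAP2 (0.0642), SIPA1 (0.0807) and EFEMP2 (0.0816). SMAP2, for example, averaged 25.8 FPKM in KO2 and 19.7 FPKM in KO1, against 47.7 FPKM in WT. The most alike to CD6 were ALDH4A1, MRPS11 and UBXN11 (0.0542 to 0.067), and to CD8B TBC1D16, HES1 and C2orf42 (0.0762 to 0.0955). CD4 had the least close matches, CDHR1 (0.242), PDK1 (0.298) and PPFIA4 (0.302). CDHR1, a cadherin family gene, averaged 0.401 FPKM in KO2 and 0.833 FPKM in KO1, against 6.14 FPKM in WT. PDK1, a kinase of the pyruvate dehydrogenase complex, averaged 14.7 FPKM in KO2 and 17.6 FPKM in KO1, against 70.4 FPKM in WT. No other member was among the 3 genes most like any member. With 11718 genes searched for each, this cannot show whether the members moved together.

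The genes next to the members in RefSeq order (up to 2 on either side that the table holds) moved in both directions. Of 20 neighbours, 13 were tested, of which 9 rose and 3 fell in KO2 and 6 rose and 3 fell in KO1. Thus 12 of 13 passed in KO2, beside 64.7% of all tested genes, and 9 of 13 in KO1, beside 67.5%. Next to CD4 on chromosome 12, GPR162, which encodes an orphan receptor, had 1.51, 1.32 and 0.998 FPKM in KO2 and 2.1, 0.837 and 1.3 FPKM in KO1, against 3.57, 4.18 and 4.48 FPKM in WT. All edited libraries were below WT, with log2 fold changes of -1.16 ± 0.17 in KO2 (limma adjusted p = 0.000145) and -1.10 ± 0.17 in KO1 (adjusted p = 0.000181). P3H3, the next gene after GPR162, was not lower: its log2 fold change was 0.30 ± 0.11 in KO2 (adjusted p = 0.0294) and 0.22 ± 0.11 in KO1 (adjusted p = 0.0866). On the other side of CD4, LAG3, a CD4 relative, was at most 0.179 FPKM in any library, and PTMS, the parathymosin gene, had log2 fold changes of 0.46 ± 0.17 in KO2 (adjusted p = 0.0314) and 0.38 ± 0.17 in KO1 (adjusted p = 0.0629). Near CD3G on chromosome 11, UBE4A, a ubiquitin ligase gene, had log2 fold changes of -0.10 ± 0.04 in KO2 (adjusted p = 0.0492) and -0.25 ± 0.04 in KO1 (adjusted p = 0.000318). On the CD3E side, MPZL3 had log2 fold changes of 0.39 ± 0.11 in KO2 (adjusted p = 0.00733) and 0.24 ± 0.11 in KO1 (adjusted p = 0.0677). Near CD247 on chromosome 1, CREG1 and RCSD1 rose in both lines, with log2 fold changes of 0.26 to 0.45 (adjusted p from 5.37e-06 to 0.00103), whereas CD247 fell. On the other side of CD247, POU2F1, which encodes the octamer-binding factor OCT1, stood at -0.13 ± 0.05 in KO2 (adjusted p = 0.0535) and rose in KO1 by 0.48 ± 0.05 (adjusted p = 1.38e-05). Near CD8A and CD8B on chromosome 2, RNF103 fell in both lines (-0.35 in KO2 and -0.25 in KO1), and RMND5A (0.19 and 0.27) and RGPD1 (0.56 and 0.64) rose in both (limma adjusted p from 8.41e-05 to 0.0177). RGPD1 has near-identical copies that can share reads, so its values are uncertain. Near CD6, TMEM132A averaged 3.03 ± 0.45 FPKM in KO2 and 2.28 ± 0.326 FPKM in KO1, against 0.533 ± 0.0671 FPKM in WT. It is among the neighbours counted as higher, but it entered the test through the edited libraries alone, so these levels are a description. VPS37C beside CD5 rose in KO2 by 0.49 ± 0.11 (adjusted p = 0.00241) and stood at 0.09 ± 0.11 in KO1 (adjusted p = 0.487).

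**Figure D5:**
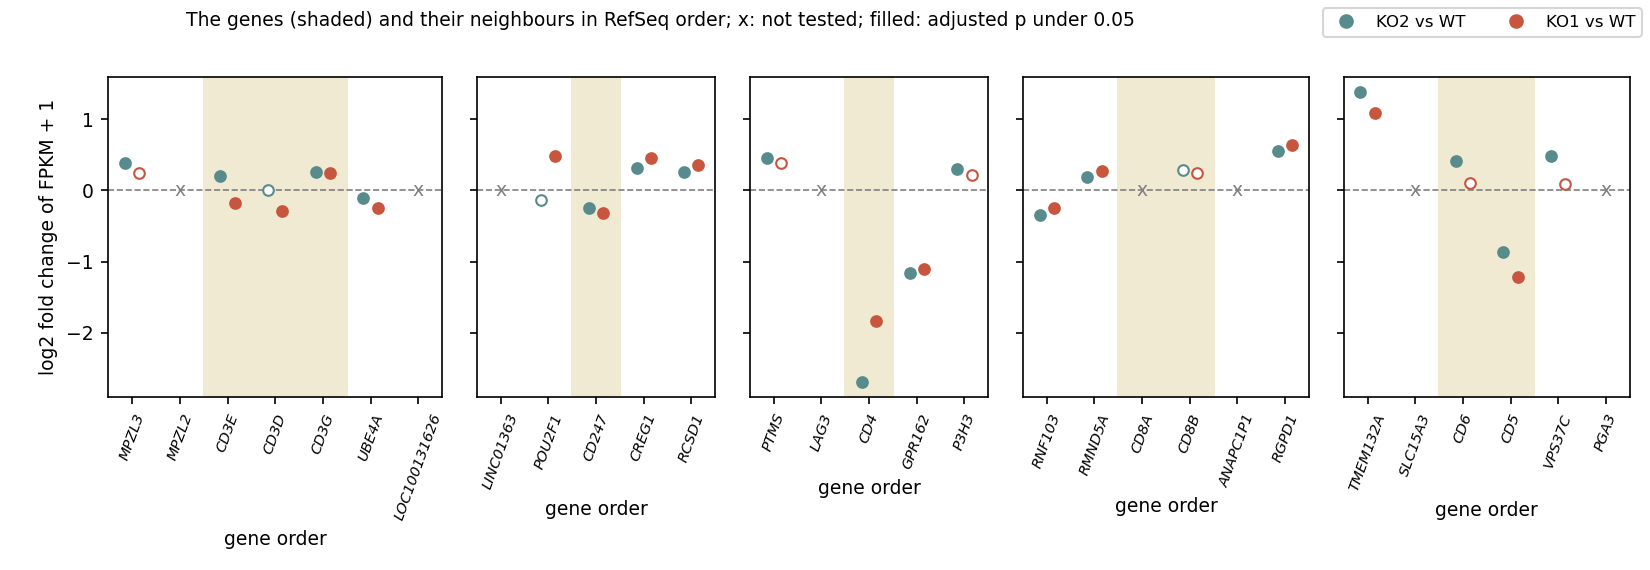
Log2 fold change of FPKM + 1 (vertical axis) in KO2 and KO1 against WT for the genes (shaded) and their neighbours in RefSeq gene order, at 5 loci; crosses mark genes that were not tested and filled points passed at an adjusted p under 0.05. CD4 and GPR162 lie below 0 in both lines, while CREG1, RCSD1 and TMEM132A lie above 0 in both.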

How the data were processed

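RNA from exponentially growing Jurkat cells was made into libraries with a KAPA mRNA HyperPrep kit, per the labels' protocols. The authors deposited 1 table of FPKM values with a column per library. Per the submitters' processing notes, which give neither order nor role, the tools were bedtools 2.7.0, Cufflinks 2.2.1 and STAR 2.5.0b and the genome build was hg19. That the values are FPKM was read from Cufflinks being named there and from the values themselves. Annotation and strandedness: not given in the sources used here. Groups and replicate numbers came from the sample titles. Of 26228 rows, 38 held text and were left out, and 28 names that read as dates were not named.

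FPKM are not counts, so limma 3.58.1 (R 4.3.3) was run on log2(FPKM + 1) for the 11737 genes that reached 1 FPKM in 3 or more libraries. The fit had 1 mean per group, all 9 libraries, a mean-variance trend and no covariates. Benjamini-Hochberg adjusted p under 0.05 over all tested genes was the threshold. Shares and the CD5 to CD6 ratio were compared with exact permutation tests in scipy 1.17.1. Motifs were counted in RefSeq windows of 300 bases (GRCh38.p14), and RefSeq was otherwise used only for gene order and chromosome. Named genes were the 9 members, the 3 most alike to each tested member, neighbours within 2 places, and from each of 3 lists the 4 genes with the largest mean change among those passing in both lines plus genes passing in opposite directions. The members and lists were chosen with earlier results of these data known. Alternatives were other filters, pseudocounts, scalings and moderation, fits of only the groups compared, a replicate block and leaving out each library. Total counts per library are unknown, so no counting interval is given.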

Additional observations from a re-analysis of the deposited data

Results flagged for a closer look

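The effects of the edited lines against WT differed for 5 of the 8 tested members, by the direct limma test of KO2 against KO1. The KO2 minus KO1 difference on the log2(FPKM + 1) scale was 0.29 for CD3D, 0.39 for CD3E, -0.86 for CD4, 0.35 for CD5 and 0.30 for CD6. Among the genes picked from the 3 lists by size or direction of change, it was -4.10 for CD2, -0.27 for ID3 and -0.36 for IKZF3. For others picked from these lists it was 0.13 for TOX, -0.37 for MYB, -0.29 for ALCAM and -0.19 for HLA-B. Among neighbouring genes it was 0.15 for UBE4A, -0.61 for POU2F1 and 0.40 for VPS37C. Among cell type markers it was -1.34 for CD79A, -1.89 for NCAM1 and 0.15 for LCK. EZH2 itself stood at -0.24 (limma adjusted p = 0.000844). The genes most alike to each member are not covered here. IKZF3 and NCAM1 had all WT libraries under 1 FPKM. CD3E, CD2 and CD79A passed in opposite directions in the edited lines. The causes of these differences were not tested.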

How the results depend on the processing

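The counts of members called were 6 or 7 against WT in each line, or 5 with quantile normalization in KO1, and 4 or 5 between KO2 and KO1 under all alternatives but one: with no filter on low values, 3 members were called between KO2 and KO1. The cause was not tested. CD4, CD5, CD247 and CD3G kept their calls in both lines under every alternative run. The size for CD4 ranged from -3.41 to -2.61 in KO2 and from -2.13 to -1.75 in KO1, with the largest at a pseudocount of 0.1. CD6 between KO2 and KO1 also lost its call with median centring (0.27, adjusted p = 0.0514), rescaling to equal sums (0.27, adjusted p = 0.0533) and no filter (0.30, adjusted p = 0.125).

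Reversed signs were all of values that did not pass. CD8B in KO1 was -0.0101 with quantile normalization. CD3D in KO2 was 0.0227 with quantile normalization and 0.0048 after rescaling to equal sums, and ran from -0.0537 to 0.0366 when 1 library was left out. Between KO2 and KO1, CD3G was -0.015 with median centring and -0.0285 after rescaling, and ran from -0.0128 to 0.0494 when 1 library was left out, while CD8B ran from -0.0268 to 0.126. The difference in CD3D share between KO2 and KO1 ran from -0.534 to 1.38 percentage points, that in CD3E share between KO1 and WT from -0.589 to 0.641, and that in the CD5 to CD6 log2 ratio between KO2 and KO1 from -0.032 to 0.108.

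Replicate numbers are shared between groups, and whether they pair the samples is not settled. Correlations of same-numbered deviations from group means ran from -0.287 to 0.318. For KO2 and WT they were 0.318, 0.033 and 0.232, and each KO2 library correlated best with the WT library of its number. With the replicate block 6 members were called in KO2, 6 in KO1 and 5 between KO2 and KO1, and it changed no member's call. Depth is unknown, which limits CD8A and CD8B most.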
